A study of Caenorhabditis elegans with 2 samples.

Results

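MAB-9, a T-box protein of the nematode Caenorhabditis elegans, regulates transcription. Of its 1431 binding peaks in starved first-stage larvae, 407 lay on an autosome at a promoter counted here as one-directional. A peak was counted when its summit fell between 1000 bp upstream and 250 bp downstream of the nearest protein-coding transcript start. Summits whose nearest starts to the left and right point away from each other, both within 2000 bp, were left out. Each remaining peak was assigned to its nearest start, and 209 of the 407 lay at genes with 2 or more starts. A summit downstream of its start cannot be flanked in this way, so it was kept even if an oppositely directed start lay close by. The 407 peaks lay next to 376 genes, 205 peaks beside genes on the plus strand. For comparison, 273 autosomal peaks lay between such divergent starts, 259 between genes away from promoters, and 225 in introns or exons.

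The worms were strain RW12257, in which CRISPR insertion at mab-9 on chromosome II gave st12257[mab-9::TY1::EGFP::3xFLAG]. Whole L1 larvae were synchronised by bleaching and starvation, given an age of 6 hours in the labels, and their sonicated chromatin was precipitated with an antibody against GFP. There was 1 group of 2 biological replicates, from separate biosamples of the same strain. No untagged worms, other stages or control libraries were analysed here, nor binding profiles of other factors, so whether a peak is particular to MAB-9 was not tested. Whole larvae were pooled, so strong binding in few cells and weak binding in many cannot be told apart.

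T-box proteins bind DNA through a conserved domain that recognises sequences around AGGTGTGA, read on either strand. Mutants in mab-9 are known for defects of hindgut cells, of the male tail and of some motor neurons. Many worm messenger RNAs receive a spliced leader, so an annotated start can be a splice acceptor, with transcription beginning upstream of it. C. elegans genes are close together, and the region before a one-directional start is often the end of the gene upstream.

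The sequences below cover the summit and 100 bp to either side of it, from the RefSeq assembly of ce11, written 5′ to 3′ on the strand of the gene. The first 4 belong to the ribosomal protein genes rpl-3 and rpl-35, the cytochrome c oxidase subunit gene cox-5A and the p97 ATPase gene cdc-48.1, which were among the 6 strongest peaks and hold the letters AAACACGC or their reverse complement GCGTGTTT, in capitals.

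rpl-3, chrIII:3867466-3867666, plus strand: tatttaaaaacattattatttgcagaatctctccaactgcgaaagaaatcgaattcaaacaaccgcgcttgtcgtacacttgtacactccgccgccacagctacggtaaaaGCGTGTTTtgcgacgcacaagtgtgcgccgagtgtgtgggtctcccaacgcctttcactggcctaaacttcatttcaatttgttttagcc
rpl-35, chrIII:7854590-7854790, plus strand: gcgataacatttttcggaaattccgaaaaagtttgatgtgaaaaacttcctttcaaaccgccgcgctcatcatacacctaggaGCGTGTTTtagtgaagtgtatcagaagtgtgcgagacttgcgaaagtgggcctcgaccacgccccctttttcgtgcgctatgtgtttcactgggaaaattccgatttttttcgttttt
cox-5A, chrIII:12905103-12905303, plus strand: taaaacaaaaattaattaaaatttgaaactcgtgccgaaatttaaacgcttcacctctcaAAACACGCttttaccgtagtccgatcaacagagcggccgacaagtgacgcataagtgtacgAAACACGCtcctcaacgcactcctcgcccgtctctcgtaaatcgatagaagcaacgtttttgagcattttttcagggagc
cdc-48.1, chrII:10563464-10563664, minus strand: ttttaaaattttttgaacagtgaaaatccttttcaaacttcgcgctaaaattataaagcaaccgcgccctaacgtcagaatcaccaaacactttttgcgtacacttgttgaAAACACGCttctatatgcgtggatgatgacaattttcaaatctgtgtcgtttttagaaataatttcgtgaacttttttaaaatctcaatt

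The next 4 show other elements that recurred at strong peaks. In cnk-1, which encodes a scaffold of Ras signalling, and sqd-1, an RNA-binding protein gene, the capitals mark the 14-letter pattern TCCGAGAGGANTNC, which contains CCGAGAGG. In cnk-1 they also mark ACGCAG, a GA run and GCGCATTT, the reverse complement of AAATGCGC. In C34C12.8 and fbxl-2 the capitals mark AAATGCGC and GCGCCAGC on either strand, and ACGCAG in C34C12.8.

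cnk-1, chrIII:10270854-10271054, plus strand: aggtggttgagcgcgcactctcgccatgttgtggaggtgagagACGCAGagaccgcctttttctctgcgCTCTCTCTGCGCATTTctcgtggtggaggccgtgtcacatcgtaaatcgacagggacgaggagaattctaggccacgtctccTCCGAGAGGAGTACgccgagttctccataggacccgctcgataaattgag
sqd-1, chrIV:6323759-6323959, plus strand: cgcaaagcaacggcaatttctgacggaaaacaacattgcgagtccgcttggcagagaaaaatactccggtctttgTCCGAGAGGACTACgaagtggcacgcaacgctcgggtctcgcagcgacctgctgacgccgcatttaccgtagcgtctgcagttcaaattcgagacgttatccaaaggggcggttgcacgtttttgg
C34C12.8, chrIII:3460176-3460376, plus strand: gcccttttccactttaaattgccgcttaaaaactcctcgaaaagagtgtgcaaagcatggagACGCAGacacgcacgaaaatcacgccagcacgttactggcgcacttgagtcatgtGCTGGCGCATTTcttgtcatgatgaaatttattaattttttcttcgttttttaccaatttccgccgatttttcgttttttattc
fbxl-2, chrIII:4757084-4757284, plus strand: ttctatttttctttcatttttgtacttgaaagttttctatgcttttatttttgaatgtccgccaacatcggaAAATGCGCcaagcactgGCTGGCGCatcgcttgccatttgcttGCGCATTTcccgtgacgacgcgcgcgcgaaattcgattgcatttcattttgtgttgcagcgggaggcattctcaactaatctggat

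The last 3 show the longest GA repeat at a peak (ida-1), the T-box sequence at a tail regulator (tlp-1, with TCACACCT, the reverse complement of AGGTGTGA, and a GA run in capitals) and the promoter of mab-9 itself, which holds none of these patterns.

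ida-1, chrIII:5755320-5755520, plus strand: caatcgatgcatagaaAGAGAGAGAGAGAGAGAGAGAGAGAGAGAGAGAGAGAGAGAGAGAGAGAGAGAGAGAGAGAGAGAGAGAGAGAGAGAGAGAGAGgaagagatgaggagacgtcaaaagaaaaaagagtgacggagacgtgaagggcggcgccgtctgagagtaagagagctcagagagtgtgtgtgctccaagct
tlp-1, chrIV:13704063-13704263, minus strand: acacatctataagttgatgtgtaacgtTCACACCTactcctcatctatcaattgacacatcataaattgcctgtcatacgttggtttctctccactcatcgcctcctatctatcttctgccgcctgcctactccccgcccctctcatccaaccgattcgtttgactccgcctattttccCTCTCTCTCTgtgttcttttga
mab-9, chrII:515825-516025, plus strand: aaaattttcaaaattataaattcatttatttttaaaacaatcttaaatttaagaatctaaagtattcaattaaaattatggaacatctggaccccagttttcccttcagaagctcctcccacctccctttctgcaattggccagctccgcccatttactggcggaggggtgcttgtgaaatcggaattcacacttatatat

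The 12 strongest one-directional peaks lay at genes with roles from translation and splicing to Ras and G protein signalling. The deposited signal is the authors' own value for a peak, in units that no source states, and serves here only to rank peaks within a list. It was highest at rpl-3, a large-subunit ribosomal protein gene (719 in the pooled list, 365 in replicate 1 and 359 in replicate 2). Next came mog-4, which encodes a helicase of splicing (712, with 365 and 342 in the replicates). After mog-4 came rpl-35 (624, with 306 in each replicate) and cox-5A (568, with 332 and 241). The replicates gave these 4 peaks nearly equal or moderately different signals, and all 4 stood in both replicates' thresholded lists.

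The other 8 of the 12 strongest belonged to cnk-1 (554), cdc-48.1 (521), egg-5, a pseudophosphatase gene of egg activation (489), eel-1, a HECT-type ubiquitin ligase gene (459), egl-30, the Gq alpha subunit gene (448), ints-4 of the Integrator complex (439), sco-1, a cytochrome c oxidase assembly gene (425), and eelo-2 (422). Their replicate signals ran from 203 to 343 in replicate 1 and from 174 to 226 in replicate 2. Across all 407, the median signal was 105 (quartiles 80.4 and 156, range 3.02 to 719), and 37 of the 407 were among the 100 strongest peaks of the whole list.

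The 407 peaks were weaker than those between divergent starts and stronger than those away from promoters, in the pooled list and in each replicate. The median pooled signal was 105 for the one-directional promoter peaks against 136 at divergent promoters, 88.8 between genes and 85.4 in introns or exons. In replicate 1 the medians in the same order were 57.9, 71.5, 48.6 and 45.8. In replicate 2 they were 50.8, 65.3, 42.8 and 40.4. The order was thus the same in both replicates, but the quartile ranges overlapped, and since peaks of the same libraries are not replicates no test was run on it.

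Fewer than all of the peaks repeated in the replicates' own thresholded lists. Of the 407, 230 (56.5%, exact 95% interval 51.5 to 61.4%) overlapped a peak of replicate 1's list by at least 50% of the shorter peak, beside 52.1% of all main peaks. For replicate 2 the count was 232 (57.0%, interval 52.0 to 61.9%), beside 52.7% of all. Both lists held 175 (43.0%, interval 38.1 to 47.97%, beside 39.1% of all), and 120 (29.5%, beside 34.4% of all) were in neither. These shares lay near those of all main peaks, above those for intergenic peaks (26.6% in both lists) and below those at divergent promoters (60.1%). Intervals cover counting error only, treating peaks as independent.

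Presence in the thresholded lists followed the signal, which is in part built in. Those lists are cut by a measure tied to rank, and the pooled signal comes from the same libraries. All 102 of the strongest peaks (signal 156 to 719) were in both lists, against 64 of the next 102 (62.7%), 8.91% of the group after them and 0 of the 102 weakest, a count that allows up to 3.55%. Of the weakest 102, 87 (85.3%) were in neither list. Among the 383 peaks found in both replicates' ranked lists, Spearman's rho between the replicates' signals was 0.70 and Pearson's r of their log2 values 0.82, as a description across peaks of the same libraries kept for repeated ranks. The log2 ratio of replicate 1 to replicate 2 had a median of 0.25 and an SD of 0.45, and 371 of the 383 (96.9%) differed by at most 2-fold.

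**Figure D1:**
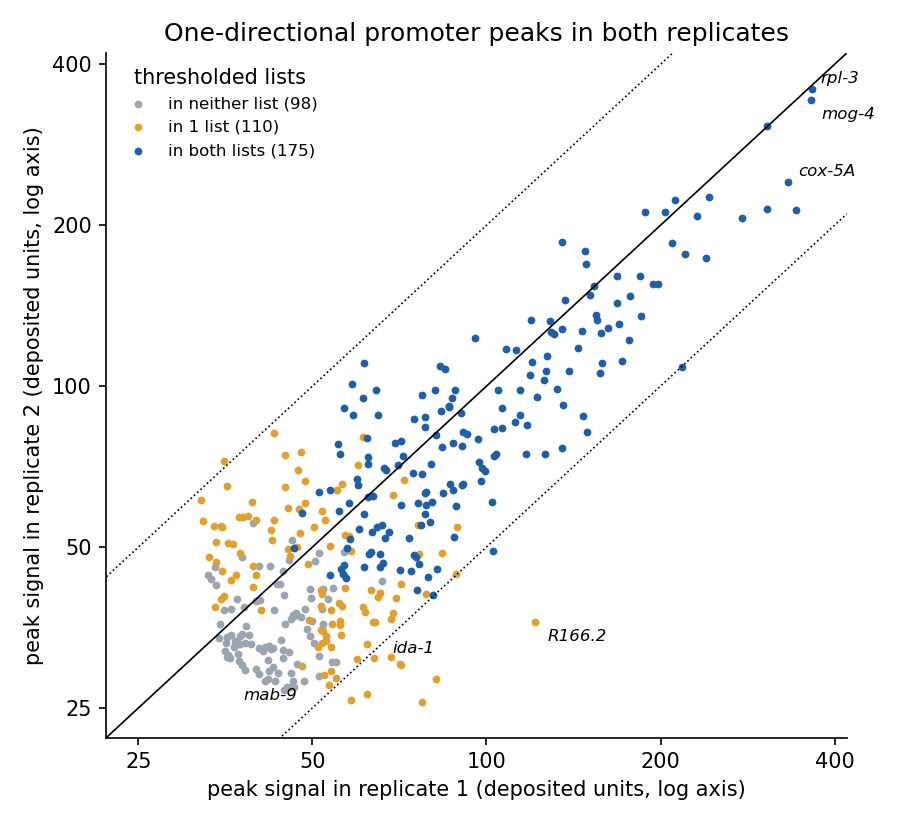
Peak signal in replicate 1 (x axis) and replicate 2 (y axis), in the deposited units on log axes, for the 383 one-directional promoter peaks found in both replicates' ranked lists. Each point is a peak, coloured by its presence in the thresholded lists, the solid line is equality and the dotted lines are 2-fold differences. The strongest peaks, such as rpl-3 and mog-4, lie close to the line, and R166.2 lies farthest below it.

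The peaks least alike in the replicates were of middling strength. At R166.2 the signal was 121 in replicate 1 and 36.1 in replicate 2 (log2 ratio 1.75), at W02H5.16 it was 77.2 and 25.6 (1.59), and at tag-281 it was 81.7 and 28.3 (1.53). In the other direction, the signal at din-1, a corepressor gene of the nuclear receptor DAF-12, was 35.2 and 72.5 (-1.04). It was 32.1 and 61.3 at edc-4 (-0.93) and 42.9 and 81.6 at sor-1 (-0.93). None of these 6 peaks was in both thresholded lists.

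The lowest signals belonged to peaks that sit beside a stronger one. Of the 15 peaks with a signal under 20, 14 overlapped a stronger main peak, as did 50 of 51 in the whole list. In all, 19 of the 407 overlapped a stronger peak, with a median signal of 15.4 against 108 for the other 388. Of the 19, 0 were in both replicate lists, and without them the share was 175 of 388 (45.1%).

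The summits clustered a short way upstream of the start. The median position was 217 bp upstream (quartiles 425 and 84.5 bp upstream), and 348 of the 407 (85.5%, interval 81.7 to 88.8%) lay upstream. Per 100 bp there were 17.4 summits between 1000 and 500 bp upstream, 29.5 between 500 and 300 bp, 69 between 300 and 200 bp, 78 between 200 and 100 bp and 55 in the last 100 bp. From the start to 250 bp downstream there were 23.5 per 100 bp. Summits between 200 and 100 bp upstream were in both replicate lists in 51.3% of cases, and downstream ones in 22.03%, with a median signal of 84.6 downstream against 116.

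At divergent promoters the median position was 158 bp upstream of the nearer start. That class holds only upstream summits by its construction, and its summit cannot lie farther from the nearer start than the middle of the gap, so the positions of the classes are not like for like.

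**Figure D2:**
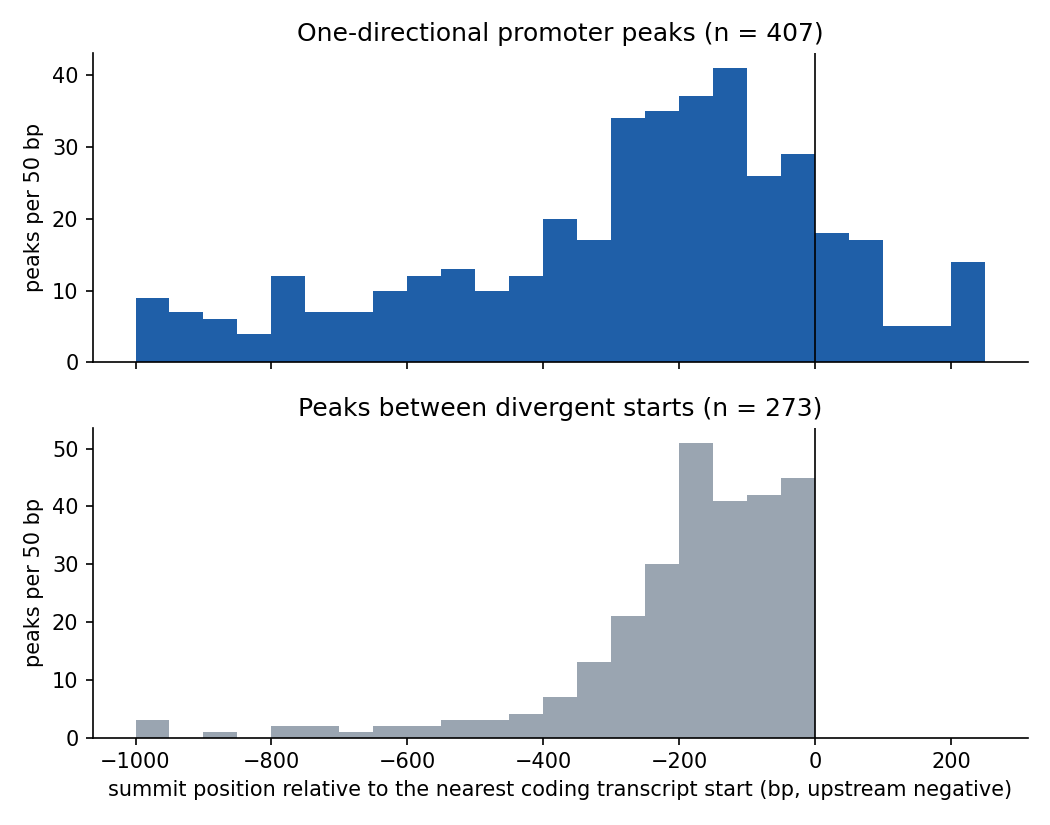
Number of peaks per 50 bp (y axis) by position of the summit relative to the nearest coding transcript start (x axis, bp, upstream negative), for the 407 one-directional promoter peaks (top) and the 273 peaks between divergent starts (bottom). The one-directional summits are most frequent between 200 and 100 bp upstream, with a tail to 1000 bp upstream and 59 summits at or downstream of the start.

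By the annotation, 273 summits (67.1%) lay between genes, 63 (15.5%) in an intron and 52 (12.78%) in an exon of the gene itself, and 19 in another gene (13 in introns, 6 in exons). The coding gene upstream lay on the same strand at 258 peaks, with a median gap between the genes of 842 bp, and on the opposite strand at 149, with a median gap of 3597 bp. Signal differed little between these arrangements (medians 106 and 102), as did the share in both lists (42.6% and 43.6%). At 75 peaks (18.4%) the start was an alternative, inner start of the gene, with a median signal of 91.2 against 109 at outermost starts.

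Summits lay farther upstream where the annotated start followed a possible splice acceptor. The letters AG stood directly before the start at 152 of the 407 peaks (37.3%, interval 32.6 to 42.2%) and at 28.1% of the 13539 autosomal genes with a one-directional start. In the replicates' own lists the shares were 38.7% and 40.9%. With AG the median position was 270 bp upstream and 8 of 152 summits (5.26%) lay downstream. Without AG the median was 150 bp upstream and 51 of 255 lay downstream. The order was the same among peaks in each replicate's list, with medians of 272 and 143 bp upstream in replicate 1 and 262 bp with AG, again farther than without, in replicate 2. Which starts receive a spliced leader is not annotated in the files used, and 2 letters occur often by base composition alone, so trans-splicing itself was not tested.

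By chromosome, the share of one-directional genes with a peak was 3.83% on I (interval 3.07 to 4.72%), 2.90% on II, 3.22% on III, 2.39% on IV and 1.90% on V (interval 1.496 to 2.37%). Over all 5 autosomes it was 367 of 13539 genes (2.71%). The remaining 9 of the 376 genes had no start that counted as one-directional when judged from the start and not from the summit.

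Beside that 2.71%, the lists with the highest shares were cytosolic ribosomal proteins (25.6%), GABAergic motor neuron genes (2 of 8), and pan-neuronal and heterochronic genes (18.2% each), with wide intervals that overlapped. Each list was a set of gene symbols and symbol patterns and need not be a full catalogue. Genes of the same function can thus have a peak outside their list. Of the 39 one-directional genes for cytosolic ribosomal proteins, 10 (25.6%, interval 13.0 to 42.1%) had a peak. An eleventh, outside the one-directional set, brings the peaks to 11, with a median signal of 175, 7 in both replicate lists and 4 in neither. The 4 in neither list were rpl-14, rpl-32, rps-21 and rps-26, with signals from 54.8 to 77.7. The 7 in both ran from rpl-29 (158.7, with 64.3 and 98.3 in the replicates) to rpl-3, and all but rpl-24.2 (162 bp) lay 272 to 446 bp upstream of the start. Ribosomal protein genes thus held peaks at both ends of the signal range.

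**Figure D3:**
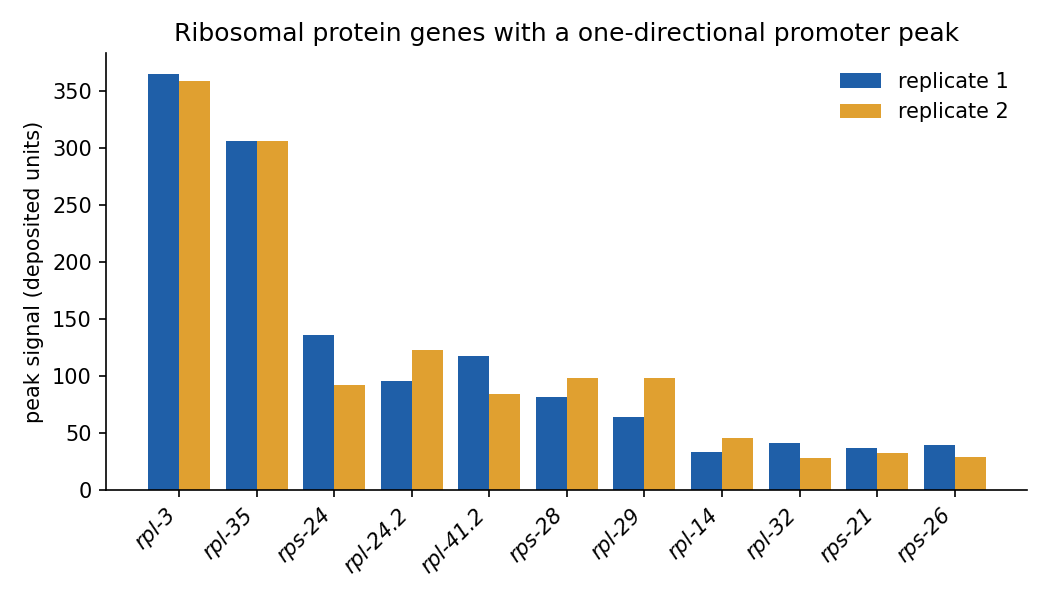
Peak signal (y axis, deposited units) in replicate 1 and replicate 2 at the 11 cytosolic ribosomal protein genes with a one-directional promoter peak (x axis), 1 bar per replicate with no error, ordered by pooled signal. The peaks at rpl-3 and rpl-35 stand above 300 in both replicates, and the other 9 stay between 28.1 and 136.

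Among translation factors, 3 of 26 had a peak, and all 3 encode subunits of initiation factor 3: eif-3.C (284), eif-3.B (139) and eif-3.J (87.3). Mitochondrial ribosomal proteins had 3 of 42 (mrpl-28, mrpl-55 and mrps-16), and aminoacyl-tRNA synthetases 0 of 23. In the list of splicing and snRNP proteins 4 of 50 genes had a peak. They were mog-4, the Sm protein gene snr-4 (308) and the heterogeneous nuclear ribonucleoprotein genes hrpk-1 (122) and hrpa-1 (102). Peaks at smu-1 (232) and hrpu-2 (191), which are not in that list, are not in this count.

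Chaperones and cyclophilins had 7 of 57 (12.3%, interval 5.08 to 23.7%). They included the co-chaperone gene bag-1 (309, with 168 and 143 in the replicates), the cyclophilin gene cyn-10 (303, with 154 in each) and hsp-1, which encodes constitutive Hsp70 (297, with 151 and 148, and a further peak of 95.2 just downstream of its start). The ubiquitin system list had 5 of 40, from cdc-48.1 (521) through ufd-3 (134), the cullin gene cul-4 (119) and the deubiquitinase gene usp-4 (114) to ubc-3 (74.99). The ubiquitin ligase gene eel-1 (459) had a peak but is not in that list. The proteasome had 1 of 15, rpn-11 (144). The respiratory chain had 3 of 35, cox-5A, cox-6A (155) and the cytochrome c1 gene cyc-1 (98.6).

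Chromatin modifiers had 6 of 48 (12.5%, interval 4.73 to 25.2%). The strongest in that list was at cbp-1, the CBP/p300 acetyltransferase gene (317). It was followed within the list by the methyltransferase genes set-4 (134) and met-1 (100.5) and the remodeller genes nurf-1 (96.4), swsn-7 (92.9) and chd-7 (85.5). Peaks at lin-59, pcaf-1 and mes-2, which are not in the list, are not in this count or order. The histone list had 1 of 8, the H4 gene his-37 (270), since few histone genes had a one-directional autosomal start. Membrane trafficking had 7 of 86, led by vps-39 (254), and the cell cycle list 2 of 40, cdc-48.1 and cdc-73 (73.4). The cell cycle list leaves out wee-1.3, which had a peak of 111.

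At the neuronal genes with a peak, signals ran from 67.2 to 140, beside the median of 105 over all 407. The pan-neuronal and synaptic list had 4 of 22 (18.2%, interval 5.19 to 40.3%), plus 1 gene outside the one-directional set. The 5 were unc-108, a Rab2 gene (112), ida-1, a dense-core vesicle protein gene (103), the synaptic vesicle gene rab-3 (76.1), maco-1 (74.5) and ric-19 (67.2), of which unc-108 was in both replicate lists. Of 8 GABAergic motor neuron genes 2 had a peak. They were the homeobox gene unc-30 (76.8, with 37.7 and 47.98) and its glutamate decarboxylase target unc-25 (73.7, with 33.1 and 47.9), neither in both lists. In 1 replicate's own list the pan-neuronal and synaptic genes with a peak numbered 2 (replicate 1) and 3 (replicate 2), and the GABAergic ones 1 in each. The peaks at unc-30 and unc-25 had no match in replicate 1's list, so the GABAergic count there rests on a different peak. Axon guidance had 1 of 30, unc-76 (140), and the cholinergic motor neuron list had 2 of 18, the potassium channel gene twk-43 (123.001) and mab-9. Two-pore potassium channels had 2 of 32, twk-43 and twk-7 (69.8).

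Hindgut and male tail regulators had 2 of 24 genes with a peak. One was tlp-1, a zinc-finger gene for tail cell fates (153, with 71.8 and 74.1 in the replicates, in both lists), with its summit 81 bp upstream. The other was mab-9 itself, 99 bp upstream of its start (chrII:515765-516084, 78.5 pooled, 42.0 and 29.3 in the replicates), in neither replicate's list and the only one of 15 one-directional T-box genes with a peak. In a further pooled list, which the authors deposited beside the conservative one, no T-box gene had one. The signal at mab-9 ranked 313 of the 407.

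Among other regulators, homeobox genes had 2 of 62 (ceh-38 with 162, and unc-30) and the Wnt list 2 of 23, the beta-catenin gene wrm-1 (109) and the Ror receptor gene cam-1 (91.2). Heterochronic genes had 2 of 11, lin-66 (116) and lin-28 (106), both regulators of larval timing. The bHLH list had 1 of 16, hlh-11 (77.7). Nuclear hormone receptors had 3 of 222 (1.35%), nhr-141 (144), the fat metabolism regulator nhr-49 (107) and nhr-147 (80.4).

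Several large or stage-related groups had few or no one-directional promoter peaks. Chemoreceptor genes had 2 of 1058 (0.189%, interval 0.0229 to 0.681%), the F-box list 2 of 222 and C-type lectins 1 of 163. The F-box list leaves out fbxl-2, which had a peak of 264. None was found at the 103 collagen genes, 107 cytochrome P450 and UDP-glucuronosyltransferase genes, 95 neuropeptide genes, 29 body wall muscle genes or 24 insulin, TOR and AMPK genes. In replicate 1's own list 1 body wall muscle gene had a peak, and in the further pooled list 1 collagen gene. With 0 of 24 or 0 of 29, shares of up to 14.2% and 11.9% are allowed by the exact interval. All these are counts beside 2.71%, with no test, since the lists were chosen with results known. Genes inside operons, downstream of a co-transcribed gene, are in the denominators, and their number in each list was not determined. Main peaks of any class, over all coding genes of a list, gave 3 collagen, 3 cytochrome P450 and UDP-glucuronosyltransferase and 4 neuropeptide genes with a peak. They also gave 3 body wall muscle, 4 insulin, TOR and AMPK and 9 chemoreceptor genes.

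**Figure D4:**
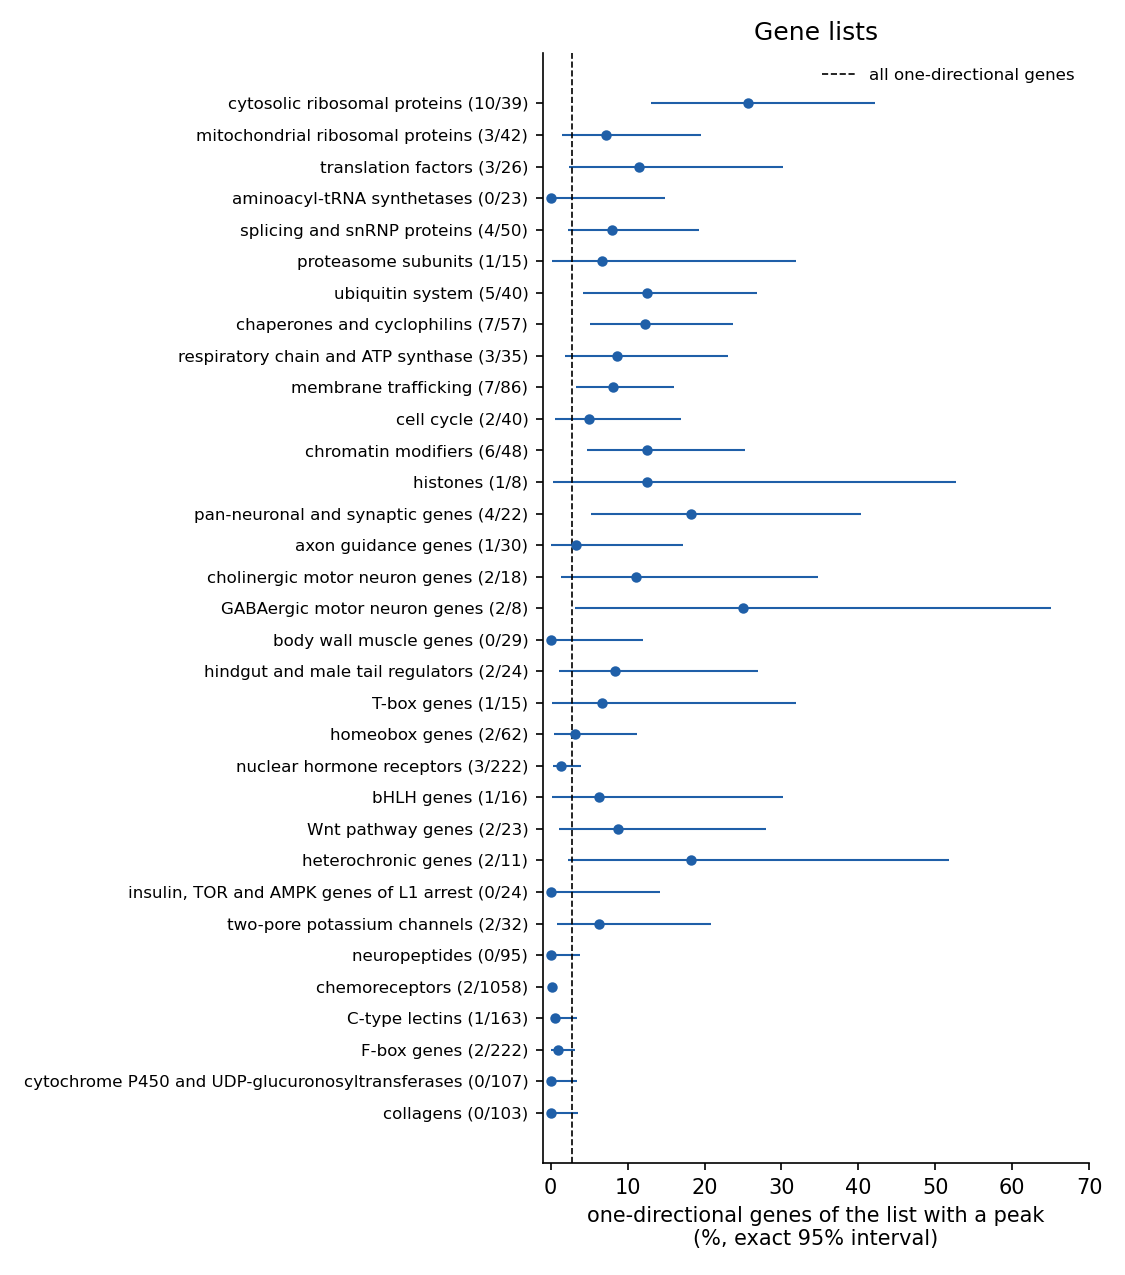
Share of the one-directional genes of each of 33 gene lists that had a one-directional promoter peak (x axis, percent), with the counts beside the list names (y axis). Points are shares, bars are exact 95% binomial intervals that cover counting error only, and the dashed line is the share among all 13539 one-directional genes (2.71%). Cytosolic ribosomal proteins have the highest share (25.6%), and collagens, neuropeptides and 4 other lists have 0.

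Of the 376 genes, 27 had more than 1 peak. The gene tent-5, for a poly(A) polymerase, had 4, with signals of 164, 115.3, 101.2 and 18.4, and has 5 annotated starts. The ubiquitin ligase gene eel-1 had 3 (459, 85.3 and 11.7) and the kinase gene mnk-1 had 3 (120, 91.2 and 16.0). In 17 of the 27 genes a weaker peak overlapped a stronger main peak, as at egg-5 (489 and 61.4). In others the peaks stood apart, as at the CREB gene crh-1 (150 and 92.4, with summits by different starts), the alpha-tubulin gene tba-2 (181 and 97.4) and the autophagy gene lgg-1 (129 and 86.4, at 888 and 222 bp upstream of 1 start).

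The DNA under the summits was richer in G and C than at other one-directional starts. In these windows, 100 bp to either side of the summit, the median GC content was 43.3% (quartiles 38.3 and 48.8%). At 12592 one-directional starts with no main peak within 2000 bp, in windows centred 217 bp upstream, it was 33.3% (quartiles 29.4 and 37.8%). The intergenic (45.8%) and intron or exon peaks (46.8%) were richer still, and the divergent ones (41.3%) less so.

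The T-box sequence AGGTGTGA was rare. It was found on either strand in 2 of the 407 windows (0.491%, interval 0.0596 to 1.76%), at tlp-1 and at scpl-3, a phosphatase-like gene, beside 0.539% of windows at all 13539 one-directional starts and 0.524% at starts without a peak. Other classes held 0 of 273 (divergent), 1 of 259 (intergenic) and 0 of 225. The peak at scpl-3 had a signal of 109 (64.8 and 40.3 in the replicates). In windows of this length the share of peaks with the sequence was no higher than the background share.

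GA repeats and ACGCAG were more frequent. GAGAGAGA or its reverse complement was in 40 windows (9.83%, interval 7.11 to 13.1%), beside 2.28% at all starts, and in 5.86% of divergent, 15.4% of intergenic peaks and 27 of 225 in introns or exons. ACGCAG or its reverse complement was in 89 (21.9%, interval 17.9 to 26.2%), beside 5.55%, and in 20.1 to 29.0% of the peaks of the other classes. At matched GC content the gap varied. GAGAGAGA was in 5.13% of peak windows and 1.22% of windows without a peak between 30 and 35% GC. The shares were 5.26% and 3.29% between 35 and 40%, 4.30% and 3.29% between 40 and 45%, and 18.1% and 8.49% between 45 and 50%. They were 19.3% and 8.87% between 50 and 55%, and 13.0% and 8% between 55 and 60%, where the windows numbered only 23 and 25. For ACGCAG the shares in the same order were 20.5% and 3.34%, 10.5% and 7.31%, 21.5% and 11.4%, 24.1% and 13.4%, 33.3% and 21.8%, and 39.1% and 16%. The part of GC content in the overall difference was not tested. TGATAA, the GATA-factor sequence, was in 8.35% of the windows, beside 20.9% at all starts, and in 5.33 to 10.4% of the other classes' peaks. By GC content in the same order, its shares were 20.5% and 22.98%, 6.32% and 18.7%, and 9.68% and 15.3%. In the richer windows they were 6.02% and 14.2%, 3.51% and 7.26%, and 4.35% and 4%. The share at peaks was thus lower in each range but the last, by a varying gap. For TGATAA too, the part of GC content was not tested.

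The longest GA repeat lay at ida-1, with 84 bases in runs of alternating G and A of at least 8 bases. Its signal was 103, 71.2 in replicate 1 and 30.04 in replicate 2, one of the larger differences between the replicates. At kin-1, the protein kinase A catalytic subunit gene, 67 bases were in such runs (signal 107, with 60.2 and 53.9). K11D2.4 had 26, T28F4.5 22 and pqn-87 21. Of the 407 windows 47 held such a run, with a median of 10 bases.

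The strongest peaks shared 4 other short elements. They were picked after their counts were seen, 3 of them from the 8-letter sequences with the largest excess in the strongest 102 peaks over the 203 weakest, so their fall with signal is how they were chosen and is given as a description. AAATGCGC was in 16 of the strongest 102 windows and in 4, 2 and 0 of the next groups of that size or 1 less. CCGAGAGG was in 15, 8, 2 and 0, GCGCCAGC in 15, 6, 6 and 2, and AAACACGC in 11, 5, 2 and 0. GAGAGAGA showed no such order (7, 17, 9 and 7). AAATGCGC and GCGCCAGC can overlap in the letters GCGC, as they do in C34C12.8.

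At least 1 of the 4 was in 43.1%, 21.6%, 10.9% and 1.96% of the windows from the strongest group to the weakest, and in 79 of all 407 (19.4%). The share was 2.47% at all one-directional starts and 2.06% at those with no peak. Since the elements were chosen for their number in these windows, a higher share at the peaks follows in part from the choice. The median distance of an element from the summit was 14.5 bp for GCGCCAGC and 24.5 to 25.5 bp for the other 3.

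Peaks at divergent promoters took no part in that choice. There AAATGCGC was in 20 of 273 windows (7.33%), with a median signal of 145 against 136 without it, CCGAGAGG in 14 (159.1 against 135) and GCGCCAGC in 22 (171 against 135). AAACACGC was in 8, with a lower median signal (108 against 136). In intergenic peaks CCGAGAGG was in 3 of 259 and GCGCCAGC in 2, beside 25 and 29 of the 407. AAATGCGC was in 11 of the 259 (4.25%, beside 5.41% of the 407), with a median signal of 252 against 88.2 without it, and AAACACGC in 6 (97.7 against 88.8).

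**Figure D5:**
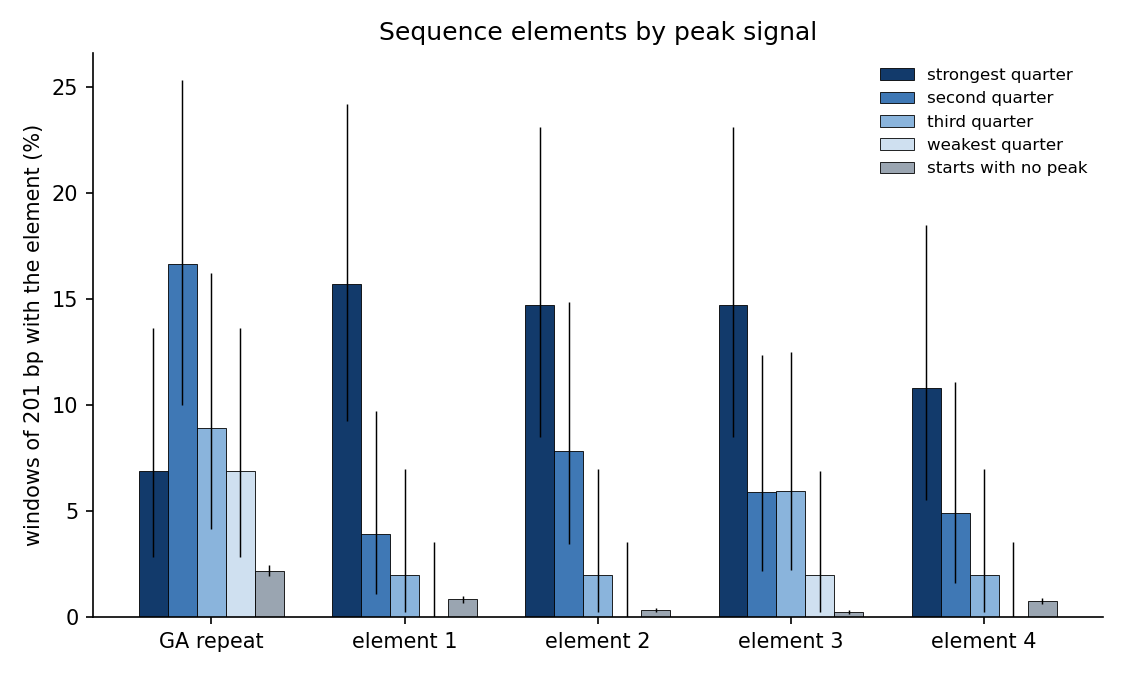
Share of windows, 100 bp to either side of the summit, with an element (y axis, percent) for the one-directional promoter peaks in 4 groups from the strongest to the weakest signal (blue) and for 12592 one-directional starts with no main peak within 2000 bp (grey). The GA repeat is GAGAGAGA, elements 1 to 4 are AAATGCGC, CCGAGAGG, GCGCCAGC and AAACACGC, and lines are exact 95% binomial intervals that cover counting error only. Elements 1 to 4, all picked after their counts in these windows were seen, are most frequent at the strongest peaks, and the GA repeat in the second group.

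CCGAGAGG stood in a longer shared context, TCCGAGAGGANTNC, at 23 of the 25 peaks that held it. The pattern was read from these same windows, from 1 base before CCGAGAGG to 5 after it, keeping each base that at least 90% of the sites shared, so its count there is a description. A T that stood 4 bases before CCGAGAGG at 27 of 29 sites was left out of it. It was in 5.65% of the 407 windows (interval 3.62 to 8.36%), in 13 of 273 at divergent promoters, 0 of 259 between genes and 3 of 225 in introns or exons. The share was 0.199% of windows at all one-directional starts and 0.119% at those with no peak. Of its copies on the autosomes 13.95% lay within 100 bp of a main summit, 26 copies by a one-directional peak.

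The 23 genes ran from cnk-1 (554) and mtcu-2 (394) through sqd-1 (347), the peptidyl-prolyl isomerase gene pinn-1 (320), cyn-10 (303), thoc-5 of the THO complex (282) and mrpl-28 (200.7) to the DNA damage checkpoint gene mrt-2 (110), wrm-1 (109), the nucleoporin gene npp-18 (102) and the phosphatase subunit gene pptr-2 (93.4). All but R166.2, npp-18 and pptr-2 were in both replicate lists, beside 43.0% of all 407 peaks. CCGAGAGG was picked after its counts at the strongest peaks were seen. All 102 of the strongest peaks were in both lists, so the high share follows in part from that choice. The factor that binds the pattern, if any, was not tested.

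Some of these windows hold sequence that also stands elsewhere in the genome. At 60 of the 407 peaks (14.7%) at least 1 stretch of 31 bases in the window recurred, and at 19 at least 50% of the stretches did. The 102 strongest included 22 such windows and the 12 strongest 5, among them mog-4 (42.7% of stretches), eel-1 (32.7%) and cnk-1 (26.3%), while rpl-3, rpl-35, cox-5A and cdc-48.1 had none. Reads from recurring sequence may be split or dropped depending on the aligner (not given in the sources used here), so signals at those peaks are less certain. Such a stretch stood at 8 of the 22 peaks with AAATGCGC, 4 of 25 with CCGAGAGG, 1 of 29 with GCGCCAGC and 3 of 18 with AAACACGC. With the 60 left out and the rest regrouped, at least 1 of the 4 elements was in 42.5% of the strongest group and 2.30% of the weakest. Whether the elements lie inside the recurring stretches was not tested. Within 200 bp of a tRNA gene lay 4 summits (0.983%, beside 3.35% of all main peaks). For snoRNA genes the count was 12 (2.95%, beside 3.00%), and for genes annotated as ncRNA, lincRNA or antisense RNA 54 (13.3%, beside 17.1%).

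The peaks nearest to the limits of the rule were these. At 998 bp upstream stood sup-1 (98.9) and algn-10 (112), and outside the limit R05G6.10 at 1012 bp (77.3) and zfp-1 at 1016 bp (120). At the downstream limit vhp-1 (250 bp, 12.84) and Y48A6B.8 (249 bp, 20.7) were inside, and abhd-14 (255 bp, 70.2) and Y48G9A.7 (258 bp, 79.6) outside, so the inside pair was the weaker. With the opposite start at 2020 and 2055 bp, lin-13 (97.5) and hmg-6 (83.6) were inside. With it at 1948 and 1915 bp, F13H8.2 (178) and B0218.5 (69.5) counted as divergent.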

How the data were processed

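MAB-9 binding was measured by chromatin immunoprecipitation and sequencing in 2 biological replicates of 1 group, and the deposited peak lists were used as they stand. Per the labels the coordinates are of ce11, and per the file headers both replicates' alignments and those of a control went into the lists. Aligner and peak caller: not given in the sources used here. Signal, as deposited, is the authors' own value for each peak, on an unstated scale. The deposited score follows the irreproducible discovery rate, a measure of how repeatable a rank is across lists. The deposited ranked lists also hold the −log10 of that rate. Read counts were not among the values used, and the samples' depth is unknown.

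The conservative list of both replicates was the main set, with 1431 peaks. Values of each replicate came from its own ranked list, and a match between peaks needed an overlap of 50% or more of the shorter. Starts came from Ensembl release 115 and sequence from the RefSeq assembly of ce11. Motifs on either strand were counted within 100 bp to either side of a summit. One-directional genes were the autosomal coding genes with at least 1 start whose nearest start upstream was not an oppositely directed one within 2000 bp. An oppositely directed start behind a nearer start on the same strand did not count. Of the list symbols, mom-3, lin-4 and let-7 matched no coding gene. Intervals are exact binomial at 95%. No test was run, because the design has 1 group and peaks are not replicates.

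Named genes were those of the 12 strongest peaks, up to 4 peaks of each list, the 3 largest replicate differences each way, windows with AGGTGTGA, the 5 with most GA repeat, genes with more than 1 peak and peaks at the limits of the rule. The genes named with the 4 short elements, and list members beyond 4, were chosen after their values were seen. The peaks and lists were chosen with earlier results of these data known. Code was tested on simulated data. The tools were pandas 2.3.3, SciPy 1.17.1, matplotlib 3.10.9 and NumPy 2.4.6 under Python 3.11.15.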

Additional observations from a re-analysis of the deposited data

Results flagged for a closer look

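The other pooled list held 50 one-directional promoter peaks on autosomes that overlapped no peak of the conservative list, and none of them enters the counts above. Their signals ran from 4.56 to 118, with a median of 70.1. The strongest stood at unc-108 (118, 536 bp upstream, where a further peak 21 bp upstream is in the conservative list), R12C12.6 (104) and the splicing factor gene cwf-19L1 (101.007). The Hox gene lin-39 was also among them, its summit 139 bp upstream of the start, at 89.1 in signal.

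The pooled ranked list held 5 more such peaks at an irreproducible discovery rate of at most 0.01. They lay at Y62E10A.3 (186), pot-3 (91.6), the citrate synthase gene cts-1 (85.8) and at clec-80 with a pair of peaks (44.8 and 32.8). The reason they are missing from the conservative list was not tested.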

How the results depend on the processing

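The number of peaks fell to 221 when a signal at or above the list median was asked for. Under that threshold 77.4% were in both replicate lists, the median signal was 149.5, the median position was -233 bp, 92.8% lay upstream and 1.58% of one-directional genes had a peak. With a promoter from 500 bp upstream to 100 bp downstream the median position was -167.5 bp, the median GC content 42.8% and the share of genes 2.03%. With 2000 bp upstream they were -277 bp, 44.3% and 3.31%. Asking for divergent starts within 4000 bp gave -213 bp and 42.8%, and gene starts gave -227.5 bp and 42.8%. Windows of 50 bp to either side held GAGAGAGA in 4.18%, ACGCAG in 12.78% and AGGTGTGA in 0% of cases, with a GC content of 47.5%, and windows of 150 bp to either side had a GC content of 40.2%. Leaving out peaks that overlap a stronger one, an alternative chosen after seeing the data, gave -222 bp.

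Using 1 replicate's own list in place of the pooled one gave 249 to 259 peaks, a median signal of 65.3 to 76.5, a median position of -242 to -239 bp and 1.73 to 1.80% of genes. The share upstream was 88.8 to 90.3%, and the share with ACGCAG 22.9 to 26.3%. In either list 7 cytosolic ribosomal protein genes had a peak. Membrane trafficking genes with a peak went from 7 to 3 and 4, pan-neuronal genes from 5 to 2 and 3, and GABAergic genes from 2 to 1 in each, in replicates 1 and 2. Such counts need not rest on the same peaks as the pooled ones. Homeobox genes went from 2 to 1 in replicate 1's list, where body wall muscle went from 0 to 1, and F-box genes from 2 to 0 in replicate 2's. T-box genes fell to 0 in each and in the other pooled list, where collagens went from 0 to 1. The cause of these changes was not tested beyond the smaller number of peaks. The median position stayed upstream of the start under every alternative run.

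No paired analysis was possible because there is 1 group. The depth is unknown, so how far it limits the weaker peaks was not tested.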
